A study of Mus musculus with 6 samples.

Results

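Described here are the genes of IL-15, IL-2 and IL-7, the receptor chains that bind them, and the receptor of IL-21: *Il15*, *Il2*, *Il7*, *Il15ra*, *Il2ra*, *Il2rb*, *Il2rg*, *Il7r* and *Il21r*. They are 9 of the 41786 gene symbols counted in each library, found by symbol. The 9 were proposed with results of niclosamide against vehicle in these same libraries already known, so their values in that comparison are given as a description, with no test. The libraries are RNA-seq of surgically made endometriosis-like lesions; all mice were female C57BL/6. Donors aged 6 weeks, of the genotype B6-GFP Positive, gave uterus that was sewn to the peritoneum of wild type recipients aged 8 weeks, and 3 days were left before dosing. Of the 6 libraries, 3 came from recipients dosed daily for 3 weeks with niclosamide, an anthelmintic drug, at 200 mg/kg body weight, and 3 from recipients dosed daily with vehicle. Lesions were collected in diestrus and parted from recipient tissue, and 4 mice were pooled in vehicle 1, whereas 1 mouse gave each remaining library. Counts per gene symbol do not tell donor cells from recipient cells.

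IL-2 and IL-15 share a signalling pair of receptor chains, the beta chain (*Il2rb*) and the common gamma chain (*Il2rg*). Each has a private alpha chain, *Il2ra* for IL-2 and *Il15ra* for IL-15. IL-15 is mostly handed over by cells that display it on their own IL-15 receptor alpha chain, and NK cells and memory CD8 T cells depend on it for survival, whereas IL-2 is made mainly by activated T cells. IL-7 and IL-21 also use the common gamma chain, paired with *Il7r* and *Il21r*. In the uterus IL-15 is best known for supporting uterine NK cells.

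A feature of the protein family was looked for in the coding sequences, because it separates the chains that carry the signal from the alpha chains that only bind. The box of codons for tryptophan, serine, any residue, tryptophan and serine near the cell membrane, known as WSXWS, was searched in frame in the first-numbered GENCODE vM21 transcript of the 6 receptor genes. It occurred 1 time each in *Il2rb*, *Il2rg*, *Il7r* and *Il21r*, and 0 times in *Il2ra* and *Il15ra*, whose ligand-binding parts belong to another domain family. The stretches are shown 5′ to 3′ on the coding strand, with the box in capitals, on GRCm38:
Il2rb: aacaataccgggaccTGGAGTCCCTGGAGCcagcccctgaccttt
Il2rg: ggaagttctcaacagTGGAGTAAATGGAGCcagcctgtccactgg
Il7r: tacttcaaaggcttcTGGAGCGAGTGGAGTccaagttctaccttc
Il21r: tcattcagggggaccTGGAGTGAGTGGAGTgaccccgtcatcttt
The *Il2rb* stretch is chr15:78485748-78485792 on the minus strand, in exon 7 of 10. For *Il2rg* it is chrX:101266200-101266244, also on the minus strand, in exon 5 of 8. The *Il7r* stretch is chr15:9511136-9511180 on the minus strand, in exon 5 of 8, and the *Il21r* stretch is chr7:125628983-125629027 on the plus strand, in exon 6 of 9. All 4 are coding. Within the box, *Il7r* and *Il21r* shared 14 of 15 bases and *Il2rb* and *Il7r* 10 of 15. Over the 45 bases the closest pair was *Il2rb* and *Il21r*, with 28 identical bases, and the most distant was *Il2rg* and *Il7r*, with 15.

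RefSeq promoter windows on GRCm38.p6 were held for 6 of the 9 genes, at 7 start sites, the others being *Il15*, *Il7* and *Il2rb*. Those of *Il2ra* and *Il2rg* are shown as the 250 bases before the start, with motif matches in capitals:
Il2ra: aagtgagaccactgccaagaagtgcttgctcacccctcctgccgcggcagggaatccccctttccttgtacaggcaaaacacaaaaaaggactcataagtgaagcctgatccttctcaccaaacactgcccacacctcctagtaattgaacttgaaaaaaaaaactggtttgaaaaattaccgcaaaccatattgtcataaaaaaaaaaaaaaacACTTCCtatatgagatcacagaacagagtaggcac
Il2rg: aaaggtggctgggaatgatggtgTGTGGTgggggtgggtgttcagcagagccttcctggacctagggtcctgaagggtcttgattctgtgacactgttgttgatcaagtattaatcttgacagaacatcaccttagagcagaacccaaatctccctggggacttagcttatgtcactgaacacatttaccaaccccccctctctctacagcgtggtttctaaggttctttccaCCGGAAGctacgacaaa
The *Il2ra* stretch is chr2:11642542-11642791 on the plus strand and the *Il2rg* stretch chrX:101268256-101268505 on the minus strand. The letters searched, on both strands and chosen after the windows had been read, were TTCNNNGAA for STAT factors, the interferon regulatory factor (IRF) motif, CCGGAAG and GGAAGT for ETS factors, GGAAAA for NFAT and TGTGGT for RUNX. No 2 matches overlapped in the stretches shown. Among 32851 mouse promoter windows of the same length, 7.02% held TTCNNNGAA, 2.98% the IRF motif, 6.91% CCGGAAG, 19.7% GGAAGT, 20.4% GGAAAA and 14.0% TGTGGT. *Il2rg* held CCGGAAG, beginning 17 bases before its RefSeq start, and TGTGGT. The counted *Il2rg* record begins downstream of that start, at 101268206 on the minus strand. *Il2ra* held GGAAGT in reverse, beginning 35 bases before its start. Among the windows not shown, *Il15ra* also held CCGGAAG, and that of *Il7r* was the only window of the 7 with TTCNNNGAA. None of the 7 held the IRF motif. A match is a run of letters, not a bound site.

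The libraries held 27797121 to 34797000 counted reads, so that 3 counts, the limit a count of 0 allows, equal 0.0862 to 0.108 CPM of these totals and cover counting error only. The CPM of genes given below are scaled further by TMM, a trimmed mean method. Uterine tissue markers were present in every library: the 7 epithelial markers summed to 303 to 1818 CPM with niclosamide and 651 to 1579 CPM with vehicle, and the 7 stromal markers to 9012 to 11686 CPM with niclosamide and 11056 to 12240 CPM with vehicle. Skeletal muscle markers varied most between libraries: the 8 summed to 714 to 28559 CPM with niclosamide and 4012 to 9738 CPM with vehicle. Structural RNAs, which move with RNA quality or library composition, also went with the groups: the mean of 6 was 0.49 to 2.84 log2 CPM with niclosamide and 3.32 to 3.88 with vehicle, without overlap, and their part in the results below was not tested. The p-values below measure the spread between single mice, and in vehicle 1 between a pool and single mice.

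Each of the 3 ligands was less abundant than the receptor chains that bind it. On the TPM scale, which also divides by gene length and so allows comparison between genes, the order over all 6 libraries was *Il2rg*, *Il2rb*, *Il7r*, *Il21r*, *Il15ra*, *Il15*, *Il2ra*, *Il7* and *Il2*. *Il2rg*, needed by every receptor of the family, averaged 212 ± 56.2 TPM with niclosamide and 148 ± 16.9 with vehicle (SD, n = 3 each), higher than 94.8% of the genes tested, and lay above *Il2rb* in 6 of 6 libraries with no overlap of ranges. *Il2rb* averaged 60.5 ± 4.78 TPM with niclosamide and 36.6 ± 5.25 with vehicle. It exceeded *Il7r* in 5 of 6 libraries, *Il7r* exceeded *Il21r* in 5 of 6, and *Il21r* exceeded *Il15ra* in 5 of 6, so these neighbours were not apart beyond their spread. *Il15ra* exceeded *Il15* in 6 of 6 libraries, although their ranges over libraries overlapped. *Il15* averaged 17.7 ± 8.47 TPM with niclosamide and 12.8 ± 3.84 with vehicle, and *Il7* 6.66 ± 1.6 and 6.27 ± 1.46 TPM in the same order of groups. *Il2* was last in each of the 6 libraries.

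**Figure D1:**
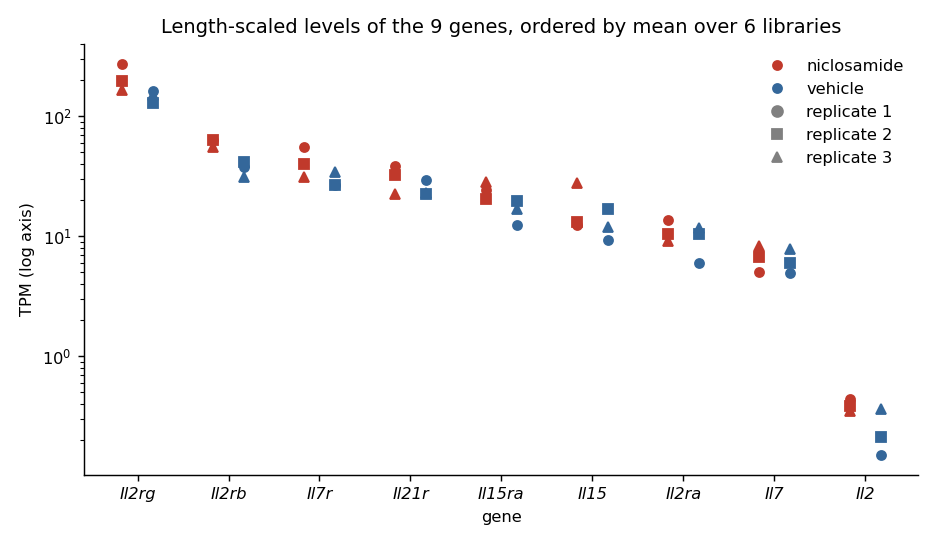
TPM of the 9 genes in each library on a log axis, with niclosamide libraries in red and vehicle libraries in blue, ordered from left to right by the mean over 6 libraries. *Il2rg* lies above all other genes (130 to 275 TPM) and *Il2* below them (0.149 to 0.438 TPM with the deposited length), while genes that stand next to each other in between overlap in range.

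*Il15*, the ligand made by stromal, myeloid and epithelial cells, had 14.4, 15 and 28.0 CPM in niclosamide 1 to 3, against 9.98, 15.5 and 11.9 CPM in vehicle 1 to 3. Niclosamide 3 stood well above all others, and the remaining niclosamide libraries lay within the vehicle range. The fitted log2 fold change of niclosamide over vehicle was 0.62 ± 0.32 (SE), and it was 0.25 without niclosamide 3. On GRCm38 the gene spans chromosome 8 from 82331624 to 82403227 on the minus strand. Values cover all its annotated exons, as for every gene here. In bulk tissue a larger number of expressing cells and more transcript per cell cannot be told apart, for this gene or for the others.

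*Il2*, the T cell growth factor, was near the lower limit of these libraries. It had 17, 16 and 13 reads in niclosamide 1 to 3, with exact 95% Poisson intervals of 9.90 to 27.2, 9.15 to 26.0 and 6.92 to 22.2, against 5, 8 and 13 reads in vehicle 1 to 3, with intervals of 1.62 to 11.7, 3.45 to 15.8 and 6.92 to 22.2. Scaled to depth these were 0.577, 0.494 and 0.404 CPM with niclosamide and 0.182, 0.220 and 0.408 CPM with vehicle. The lowest niclosamide library and the highest vehicle library had nearly the same value, so the groups met. The log2 fold change was 0.85 ± 0.43 (SE), reached 1.27 without vehicle 3 and was 0.65 without vehicle 1. Its level is uncertain for a further reason. The deposited gene record joins 949 bases of exon on chromosome 3 (37120713 to 37125954, minus strand) with copies on 2 further scaffolds, for a length of 2823. Reads that align to several of these places were not counted by the counter's default setting, so *Il2* may be undercounted in all libraries. With the chromosome 3 length alone, *Il2* averaged 1.16 ± 0.135 TPM with niclosamide and 0.716 ± 0.326 with vehicle, against 0.39 TPM with niclosamide for the deposited length, and it was still the lowest of the 9 by mean. None of the other 8 genes had such a record.

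*Il7*, a stromal and lymphatic endothelial factor that keeps resting T cells and innate lymphoid cells alive, differed least. It had 6.18, 8.18 and 8.89 CPM in niclosamide 1 to 3, against 5.65, 5.87 and 8.26 CPM in vehicle 1 to 3. The ranges overlapped, and the log2 fold change of 0.23 ± 0.26 (SE) was smaller than its error. It was 0.13 to 0.15 without niclosamide 3, vehicle 1 or vehicle 2, and 0.37 without niclosamide 1 and 0.43 without vehicle 3. The gene lies on chromosome 3 at 7572028 to 7613427.

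The alpha chain genes *Il2ra* and *Il15ra* are neighbours on the plus strand of chromosome 2, at 11642792 to 11693194 and 11705169 to 11733985, with 11974 bases between their annotated ends. *Il15ra*, which presents IL-15 to neighbouring lymphocytes, had 29.1, 24.0 and 29.4 CPM in niclosamide 1 to 3, against 13.7, 18.4 and 17.1 CPM in vehicle 1 to 3. All 3 niclosamide libraries exceeded all 3 vehicle libraries. The log2 fold change was 0.74 ± 0.17 (SE), with 0.63 to 0.83 when any 1 library was left out. *Il2ra* (CD25), which raises the affinity for IL-2 on regulatory and activated T cells, had 28.0, 21.2 and 16.5 CPM in niclosamide 1 to 3, against 11.5, 17.2 and 20.6 CPM in vehicle 1 to 3. These groups overlapped broadly, with niclosamide 1 highest and the pooled vehicle 1 lowest of all. Its log2 fold change of 0.41 ± 0.28 (SE) was 0.20 without niclosamide 1, 0.21 without vehicle 1 and 0.62 without vehicle 3.

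*Il2rb* (CD122), the shared beta chain, is expressed mainly on NK cells and antigen-experienced T cells and lies on chromosome 15 (78479256 to 78511627, minus strand). It had 135, 133 and 103 CPM in niclosamide 1 to 3, against 74.2, 70.2 and 56.8 CPM in vehicle 1 to 3. The groups did not overlap, and niclosamide 3 and vehicle 3 were the lowest of their groups. Its log2 fold change of 0.89 ± 0.17 (SE), or 1.85-fold, lay between 0.79 and 1.01 with any 1 library left out.

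*Il2rg* (CD132), on the X chromosome from 101264387 to 101268206, had 206, 145 and 110 CPM in niclosamide 1 to 3, against 114, 77.3 and 96.2 CPM in vehicle 1 to 3. Niclosamide 3 fell below vehicle 1, so the groups overlapped. The log2 fold change was 0.68 ± 0.27 (SE), and 0.41 without niclosamide 1. This chain is found on most leukocytes, whose markers are given below.

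*Il7r* (CD127), which marks resting T cells and innate lymphoid cells, had 83.3, 59.2 and 41.2 CPM in niclosamide 1 to 3, against 37.0, 31.6 and 43.9 CPM in vehicle 1 to 3. Niclosamide 3 lay inside the vehicle range. The log2 fold change of 0.71 ± 0.27 (SE) was 0.42 without niclosamide 1. *Il21r*, found on B, T, NK and myeloid cells, had 66.2, 54.3 and 34.2 CPM in niclosamide 1 to 3, against 47.1, 30.5 and 33.4 CPM in vehicle 1 to 3, again with niclosamide 3 inside the vehicle range. Its log2 fold change was 0.48 ± 0.28 (SE), and 0.25 without niclosamide 1. *Il7r* lies on chromosome 15 at 9506159 to 9529876 and *Il21r* on chromosome 7 at 125603253 to 125634397.

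**Figure D2:**
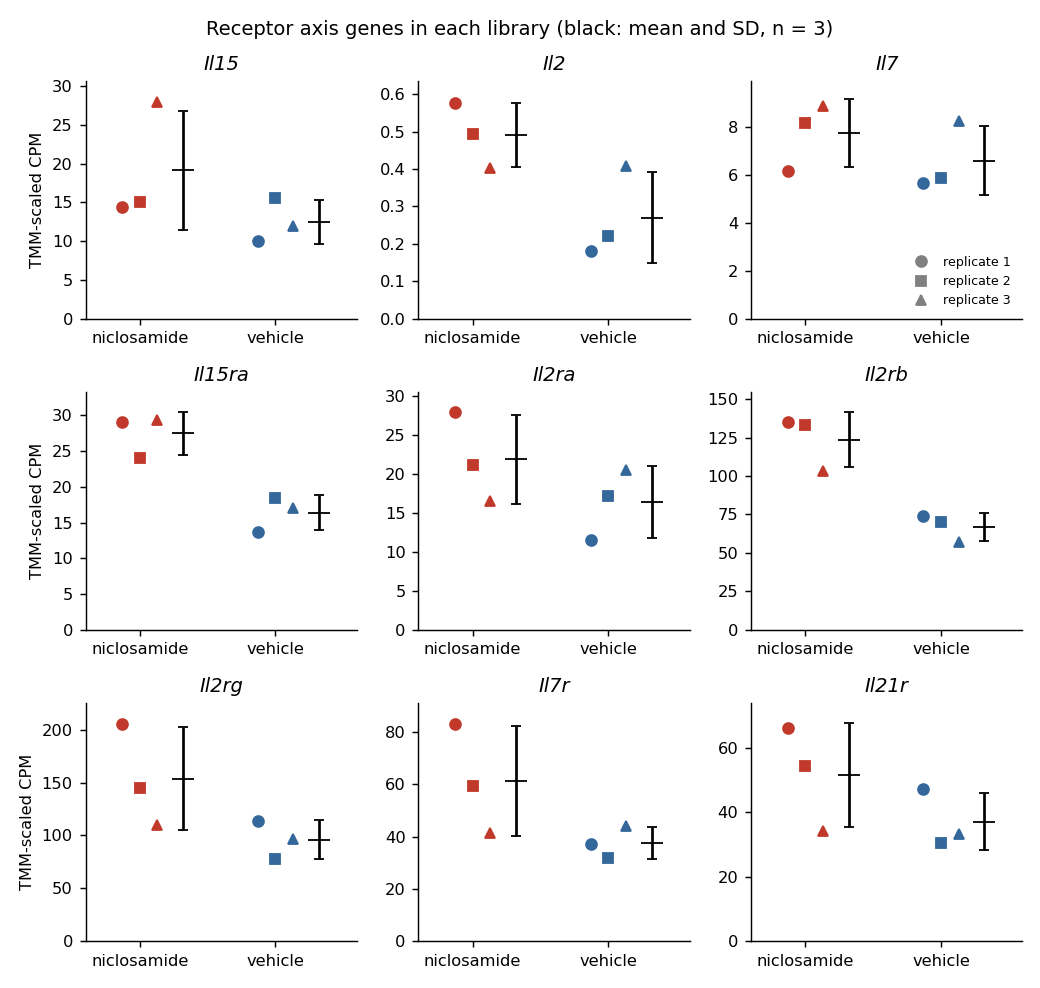
TMM-scaled CPM of each gene in the 3 niclosamide libraries (red, left) and the 3 vehicle libraries (blue, right), with symbols for the replicate number and a black mean with SD (n = 3). Only *Il15ra* (24.0 to 29.4 against 13.7 to 18.4 CPM) and *Il2rb* (103 to 135 against 56.8 to 74.2 CPM) show groups that do not overlap.

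All 9 genes passed the filter on low counts, *Il2* with the least margin, and all 9 had a fitted log2 fold change above 0, as 53.7% of the 17364 genes tested did (46.3% were below 0). The niclosamide libraries lay wholly above the vehicle libraries in 2 of the 9, against 5.90% of genes tested, and wholly below them in 0 of the 9, against 6.37%. After Benjamini-Hochberg adjustment over all genes, the quasi-likelihood test of edgeR called 0 of 17364 (0% in each direction, lowest adjusted p = 0.174), so 0 of the 9. At an unadjusted p under 0.05 it had 585 genes higher (3.37%), 4 of the 9 among them, and 617 lower (3.55%), none of the 9 among them. DESeq2 called 75 genes higher (0.424%), among them *Il2rb* and *Il15ra*, and 103 lower (0.583%). Because the 9 were chosen on this comparison, nothing is read from these counts.

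**Figure D3:**
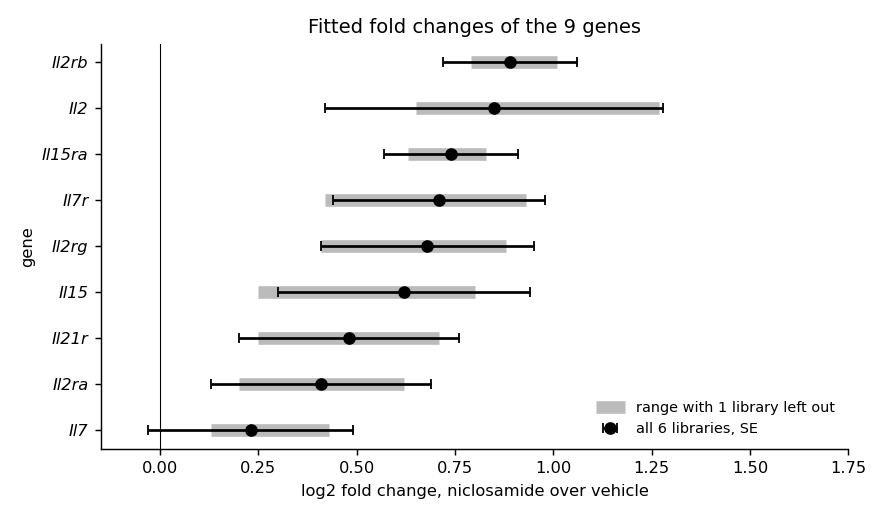
Fitted log2 fold change of niclosamide over vehicle for the 9 genes (points, with SE), over the range obtained when each library is left out in turn (grey bars). *Il2rb* at 0.89 and *Il15ra* at 0.74 have the narrowest grey bars relative to their size. The widest bars are those of *Il2* (0.65 to 1.27) and *Il15* (0.25 to 0.80). Relative to size they are those of *Il7* (0.13 to 0.43) and *Il2ra* (0.20 to 0.62).

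The choice of genes did not use the differences among libraries of 1 group, and here *Il15* differed in its order of libraries from *Il2rg*, *Il21r* and *Il7r*. Relative to the mean of its own group, *Il15* stood at -0.34, -0.28 and 0.62 log2 CPM in niclosamide 1 to 3 and at -0.29, 0.34 and -0.04 in vehicle 1 to 3. *Il2rg* stood at 0.48, -0.04 and -0.44 in niclosamide 1 to 3 and at 0.27, -0.29 and 0.02 in vehicle 1 to 3. *Il21r* had 0.41, 0.13 and -0.54 with niclosamide and 0.37, -0.25 and -0.12 with vehicle. In both groups the library highest in *Il15* was thus the lowest in *Il2rg* and *Il21r*. *Il7r* shared the niclosamide part, at 0.50, 0.01 and -0.51, and had its lowest vehicle value, -0.23, in vehicle 2, where *Il15* was highest. *Il15ra* was also highest in niclosamide 3 (0.10) and in vehicle 2 (0.18), and lowest in niclosamide 2 (-0.19) and in vehicle 1 (-0.25).

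As a description over 6 libraries with group means removed, which leaves few independent values, Pearson's r was -0.90 between *Il15* and *Il2rg*, -0.95 between *Il15* and *Il21r*, -0.82 between *Il15* and *Il7r* and 0.63 between *Il15* and *Il15ra*. With the remaining genes *Il15* gave -0.66 for *Il2rb*, -0.27 for *Il2ra*, -0.29 for *Il2* and 0.41 for *Il7*. For *Il2rg* it was 0.95 with *Il21r* and 0.89 with *Il7r*. These points share their libraries, scaling and cell content. The same libraries ordered the leukocyte markers: the 6 pan-leukocyte markers stood at 0.23, 0.11 and -0.34 in niclosamide 1 to 3 and at 0.29, -0.27 and -0.02 in vehicle 1 to 3, and the 10 macrophage markers at 0.30, 0.21 and -0.51 and at 0.44, -0.29 and -0.15. NK cell markers did not follow them, being highest in niclosamide 2 (0.24) and vehicle 2 (0.36). The part of these cells in the pattern was not tested.

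**Figure D4:**
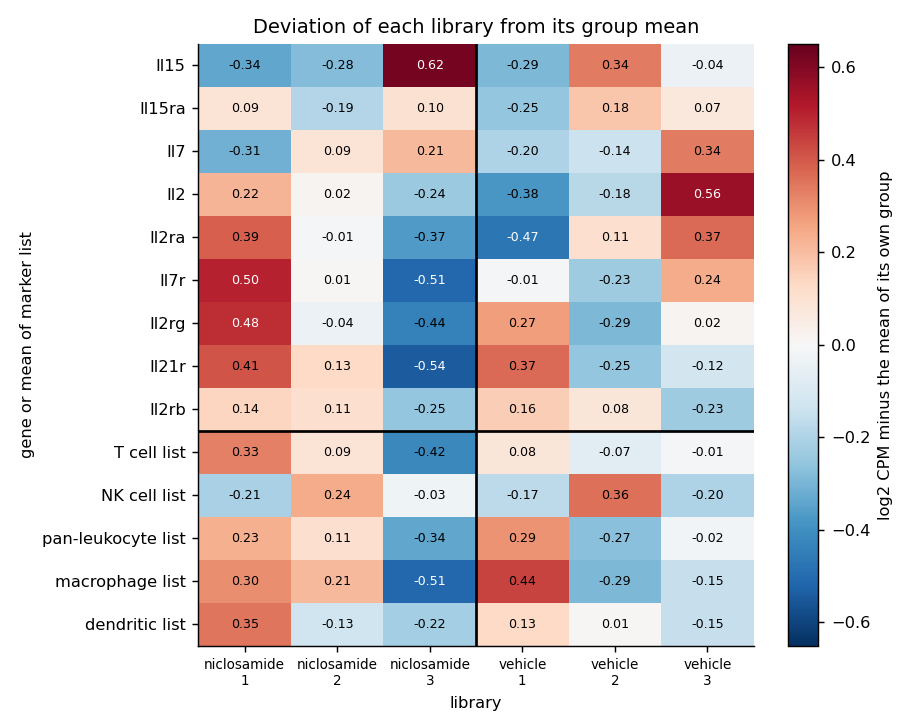
Deviation of each gene or marker list mean (rows) from the mean of its own group in each library (columns), in log2 CPM, red above and blue below. *Il15* is highest in niclosamide 3 (0.62) and vehicle 2 (0.34), the libraries where *Il2rg*, *Il21r* and the macrophage list are lowest.

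Among markers of cells that can carry these receptors, the NK cell, T cell, and regulatory T and innate lymphoid list means did not overlap between groups. No marker in these lists passed edgeR's test after adjustment. The 13 NK cell markers, all above 0, had a median log2 fold change of 1.05, against 0.02 over all genes tested, and list means of 4.4, 4.86 and 4.58 log2 CPM in niclosamide 1 to 3 against 3.28, 3.81 and 3.25 in vehicle 1 to 3. Their summed level was 350 to 531 CPM with niclosamide and 153 to 214 CPM with vehicle, and in 10 of 13 the niclosamide libraries lay wholly above the vehicle libraries, against 5.90% of all genes tested. The leading members were the receptor genes *Klri2* (15.8 ± 0.224 CPM with niclosamide and 6.54 ± 1.35 with vehicle) and *Klrd1* (64.2 ± 17.1 and 25.3 ± 3.10 CPM). The 15 T cell markers, all above 0 as well, had a median of 0.71, summed levels of 400 to 697 CPM with niclosamide and 298 to 343 CPM with vehicle, and 9 of 15 wholly above (again against 5.90%), led by *Cd3g* (log2 fold change 1.00) and *Cd28* (1.07). The 9 tested markers of regulatory T and innate lymphoid cells had a median of 0.46, all above 0, with 1 without overlap, *Ikzf2* (0.46), while *Areg* (1.52) overlapped. *Foxp3*, the factor that defines regulatory T cells, had 9.27 ± 2.99 CPM with niclosamide and 7.77 ± 1.14 with vehicle. edgeR's adjusted p was 0.496 at the lowest among the NK markers and 0.521 among the T cell markers. The lists were chosen with earlier results of these data known, so nothing is read from the counts of markers wholly above. None of the defining markers *Ncr1*, *Cd3e* or *Foxp3* was at 0 in any library, but groups overlapped in each. *Ncr1* had 10.6, 6.7 and 21.2 CPM in niclosamide 1 to 3, against 3.61, 10 and 6.81 CPM in vehicle 1 to 3. *Cd3e* had 52.4, 52.2 and 29.8 CPM in niclosamide 1 to 3, against 36.1, 21.7 and 24.6 CPM in vehicle 1 to 3. The part of CD8 T cells in the NK cell list was not tested.

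The genes were also set against these markers within each library. Relative to the NK cell list mean, all 9 were lower with niclosamide than with vehicle on average, from -0.28 for *Il2rb* and -0.38 for *Il2* to -0.93 for *Il7*, on the log2 scale. That list's own mean was 4.61 log2 CPM with niclosamide and 3.45 with vehicle, and the largest log2 fold change of the 9 was 0.89. The shared sign was thus set once this list was picked, and nothing is read from it. Single libraries weighed on these differences: the value was -0.12 for *Il2rb* without vehicle 1 and -0.01 for *Il2* without vehicle 3. *Il7* alone had groups that did not overlap, at -1.76, -1.81 and -1.42 in niclosamide 1 to 3 against -0.77, -1.24 and -0.19 in vehicle 1 to 3. Against the T cell list mean the differences were -0.51 for *Il7*, -0.33 for *Il2ra*, -0.18 for *Il15*, -0.10 for *Il2rg*, -0.09 for *Il7r*, 0.00 for *Il15ra*, 0.03 for *Il2* and 0.13 for *Il2rb*, each with overlapping groups, and -0.30 for *Il21r* (-0.15 without vehicle 1), whose groups did not overlap. Against the pan-leukocyte mean, *Il2rb* stood at -1.65, -1.55 and -1.47 in niclosamide 1 to 3 and at -2.14, -1.66 and -2.21 in vehicle 1 to 3, a difference of 0.45 without overlap. *Il2rg* differed by 0.21 without overlap, or by 0.09 without niclosamide 1, and *Il15ra* by 0.31 with overlap, or by 0.04 without vehicle 1, 0.09 without niclosamide 3 and 0.54 without vehicle 2. Over these 3 lists, 4 of 27 pairs of a gene and a list had groups apart. Of single genes tested, set against no list, 5.90% lay wholly above and 6.37% wholly below. Against the dendritic cell list mean, *Il15ra* and *Il2rb* differed by 0.48 and 0.62 without overlap, and the remaining genes overlapped. All 9 overlapped against the macrophage list and the regulatory T and innate lymphoid list. *Il2*, *Il15ra* and *Il2rb* were apart against the stromal and endothelial lists, and *Il7r* against the endothelial list. These differences come from the same libraries and comparison that chose the genes, and carry no test. The lists, too, were chosen with earlier results of these data known.

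**Figure D5:**
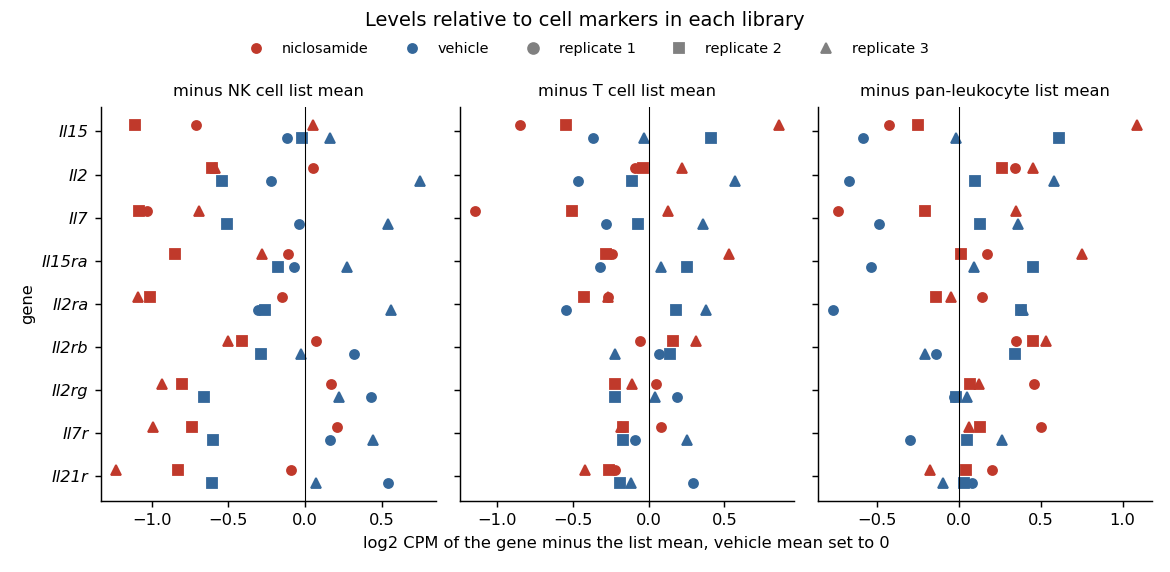
Log2 CPM of each gene minus the mean of the NK cell, T cell or pan-leukocyte markers of the same library, shifted so that the vehicle mean is 0, with niclosamide in red and vehicle in blue. Against NK cell markers all 9 genes lie lower on average with niclosamide (-0.28 to -0.93), a sign set by the higher level of that list with niclosamide. Against T cell markers *Il15ra* lies nearest to 0, followed by *Il2* (0.03), *Il7r* (-0.09), *Il2rg* (-0.10) and *Il2rb* (0.13).

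Ratios between the genes were taken per length. The ratio of *Il2rg* to *Il2rb* in TPM was 4.35, 3.10 and 3.01 in niclosamide 1 to 3, against 4.36, 3.13 and 4.82 in vehicle 1 to 3. *Il2rb* over *Il2ra* was 4.66, 6.06 and 6.04 with niclosamide, against 6.24, 3.93 and 2.66 with vehicle. *Il15ra* over *Il15* was 1.96, 1.55 and 1.02 with niclosamide, against 1.33, 1.15 and 1.39 with vehicle. Groups overlapped in each of these ratios. *Il2rg* over *Il7r* was 5.04 ± 0.228 with niclosamide and 5.12 ± 0.909 with vehicle (SD, n = 3 each), and *Il2rg* over *Il21r* was 6.85 ± 0.654 with niclosamide and 5.96 ± 0.555 with vehicle.

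The rest of the pathway was read from 5 lists of 59 genes, of which 57 were tested. After Benjamini-Hochberg adjustment 0 of 57 passed edgeR's test (0% of all genes did), DESeq2 also called 0, and 3 had an unadjusted edgeR p under 0.05, all higher, where 3.37% of all genes tested were higher and 6.92% passed in either direction. That share of the pathway genes is near the background. The log2 fold change was above 0 in 36 and below 0 in 21, with a median of 0.09.

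Other common gamma chain genes were listed together with those of the cytokine TSLP. *Il21*, a cytokine of helper T cells, had 4.31, 1.24 and 0.715 CPM in niclosamide 1 to 3, against 0.437, 0.0823 and 0.816 CPM in vehicle 1 to 3. Niclosamide 1 was far above the rest and niclosamide 3 lay below vehicle 3 (log2 fold change 2.23 ± 0.96 SE, adjusted p = 0.742 by edgeR). *Il4ra*, the IL-4 receptor chain, averaged 232 ± 117 CPM with niclosamide and 242 ± 39.5 with vehicle, and *Tslp*, whose receptor includes the IL-7 receptor chain, 2.33 ± 0.315 and 1.95 ± 0.551 CPM. *Il9* was at 0 in all 6 libraries, which allows up to 0.108 CPM in the shallowest, and *Il4* had 2 to 12 counts per library. The 5 tested members had a median log2 fold change of 0.19.

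The 16 signal relay genes gave a median log2 fold change of 0.06. *Jak1*, the kinase on the beta chain, averaged 388 ± 55.3 CPM with niclosamide and 334 ± 11.3 with vehicle, and *Jak3*, the kinase on the gamma chain, 46.7 ± 10.6 and 42.5 ± 2.29 CPM. *Stat5a* and *Stat5b*, the main factors downstream, had log2 fold changes of 0.02 ± 0.15 and 0.19 ± 0.21 (SE). *Lck*, a T and NK cell kinase, averaged 62.6 ± 8.74 CPM with niclosamide and 40.3 ± 2.94 with vehicle (log2 fold change 0.64 ± 0.14 SE, edgeR adjusted p = 0.53), and *Pik3cd*, a leukocyte kinase subunit, 96.9 ± 23.9 and 77.2 ± 5.67 CPM. *Pik3r1* and *Sos1* had log2 fold changes of -0.29 and -0.12.

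Feedback inhibitors showed no shared direction: 5 of 10 were above 0 and 5 below, with a median of 0.04. *Cish*, a direct STAT5 target, had 24.6, 33.2 and 24.3 CPM in niclosamide 1 to 3, against 34.3, 30.5 and 29.7 CPM in vehicle 1 to 3. Niclosamide 1 and 3 were below every vehicle library and niclosamide 2 lay among them. *Cblb* and *Ptpn2* had log2 fold changes of 0.42 and 0.23, and *Socs3* and *Socs2* of -0.40 and -0.29.

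Over the 14 STAT5 targets and survival genes the median log2 fold change was 0.06. *Ifng*, the cytokine of activated NK and T cells, had 18.4, 29.4 and 5.16 CPM in niclosamide 1 to 3, against 5.28, 4.42 and 2.14 CPM in vehicle 1 to 3. Niclosamide 3 lay just below vehicle 1 (log2 fold change 2.16 ± 0.67 SE, edgeR adjusted p = 0.623). *Tnfrsf9*, an activation receptor, averaged 30.9 ± 21.9 CPM with niclosamide and 13.9 ± 4.02 with vehicle, and *Osm* 5.50 ± 1.5 and 11.5 ± 8.40 CPM. *Bcl2* and *Myc*, survival and growth genes that many lesion cells express, had log2 fold changes of 0.03 and 0.03, and *Ccnd3* of -0.18.

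Factors that induce *Il15* and *Il15ra* had a median of 0.10 over 12 genes. *Irf1*, which binds the *Il15* promoter, had 338, 446 and 199 CPM in niclosamide 1 to 3, against 247, 217 and 175 CPM in vehicle 1 to 3. Niclosamide 3, the library with most *Il15*, was the lowest of its group in *Irf1*, and a link between these genes was not tested. *Irf8* had a log2 fold change of 0.52, and *Rela* and *Irf3* of -0.15 and -0.04.

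Other cell types that can carry the 9 transcripts were read the same way. Macrophage markers had a median log2 fold change of 0.47 over 10 genes (*Mertk* 1.00, *Emr1* 0.36, *Cd14* -0.36), and their sums overlapped, at 1988 to 3573 CPM with niclosamide and 1656 to 2983 CPM with vehicle. Dendritic cell markers had a median of 0.27 over 9 (*Ciita* 0.98, *Clec9a* 1.04, *Cd209a* -0.70), with sums of 244 to 525 CPM with niclosamide and 228 to 319 CPM with vehicle. B and plasma cell markers had a median of 0.10 over 10 (*Igj* 1.53, *Xbp1* 0.30, *Cr2* -0.16, *Pax5* -0.18), and the 6 pan-leukocyte markers a median of 0.39 (*Ptprc* 0.68, *Cd52* 0.69). Stromal markers had a median of 0.10 over 7 (*Dcn* 0.39, *Lum* 0.22, *Pdgfrb* -0.54, *Col1a1* -0.57) and endothelial markers of -0.01 over 7 (*Cdh5* 0.11, *Prox1* 0.08, *Kdr* -0.17, *Tek* -0.30). Epithelial markers had a median of -0.27 over 7 (*Cldn3* 0.51, *Foxa2* -1.52, *Epcam* -0.45). The 6 smooth muscle markers were all below 0, with a median of -1.31 (*Tagln* -1.34, *Lmod1* -1.26), and the 8 skeletal muscle markers all above 0, with a median of 0.76 (*Mylpf* 1.00, *Myh1* 0.98) and overlapping groups. The skeletal muscle list mean was 11.47, 6.28 and 9.83 log2 CPM in niclosamide 1 to 3, against 8.71, 9.70 and 9.87 in vehicle 1 to 3. Its group average was thus lower with niclosamide, at 9.20 against 9.42. Of the 6 structural RNAs, 5 were below 0, with a median of -2.53 (*Rnu73b* 0.25, *Rpph1* -2.92, *Rn7sk* -2.63). Of all 107 marker and 6 structural genes tested, the T and NK cell lists above included, edgeR called 0 after adjustment. DESeq2 called 10, of which 7 were NK cell markers. At an unadjusted edgeR p under 0.05 there were 38, of which 11 were T cell and 10 NK cell markers. These lists, too, were chosen with earlier results of these data known. Over all genes tested, 6.92% had an unadjusted edgeR p under 0.05, and DESeq2 called 0.424% higher and 0.583% lower.

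The genes most like each of the 8 genes above 1 CPM were taken by Pearson's r of log2 CPM over the 6 libraries, among 13850 others. Group means were left in here, so r also carries the difference between groups on which the genes were chosen. The part of that difference in the values was not tested. For *Il2rg* the most alike were *Tmem154* (r = 0.999), *Clec7a* (0.994) and *Cybb* (0.992). *Clec7a* and *Cybb* are myeloid genes, a beta-glucan receptor and the phagocyte oxidase chain, and *Cybb* had 977, 541 and 328 CPM in niclosamide 1 to 3 against 327, 204 and 302 CPM in vehicle 1 to 3. *Il21r* was closest to *Slc11a1*, a metal transporter of phagosomes (0.999), *Fcgr2b*, an inhibitory antibody receptor (0.997), and *Rhoh* (0.997). For *Il7r* they were *Best1*, *Ocel1* and *Scarf1* (0.994 to 0.996), and for *Il2rb* they were *Sp110*, an interferon-inducible nuclear body gene (0.994), *Bco2* (0.992) and *Atp8b4* (0.987).

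The closest genes of *Il15*, *Il15ra*, *Il2ra* and *Il7*, again with group means left in, were different ones. *Il15* was closest to *Psip1* (0.996), *Tmem194* (0.990) and *Tex15* (0.982). *Tex15*, a germ cell gene, had 1.80, 1.36 and 16.1 CPM in niclosamide 1 to 3 against 0.619, 2.52 and 1.13 CPM in vehicle 1 to 3, and like *Il15* it was highest in niclosamide 3, next in vehicle 2 and lowest in vehicle 1. *Il15ra* was closest to *Mrpl47*, *Hsdl2* and *Nqo2* (0.990 to 0.997), *Il2ra* to *Wdr44*, *Neil2* and *Pikfyve* (0.987 to 0.993), and *Il7* to *Hspb11*, *Sec62* and *Mob4* (0.940 to 0.964). With 6 libraries such values are easily reached: 391 genes had an r of at least 0.9 with *Il2rg*, 470 with *Il21r*, 269 with *Il7r*, 197 with *Il2rb*, 115 each with *Il15* and *Il2ra*, 104 with *Il15ra* and 25 with *Il7*.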

How the data were processed

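Each deposited file holds raw counts, in whole reads for each gene symbol. The file headers record featureCounts 1.4.6-p4 run by the authors on STAR alignments, over exons of a GRCm38.p3 annotation, reverse-stranded and with no option for reads that align to several places. The submitters' processing notes also name Trimmomatic 0.33, STAR 2.4.2a and edgeR 3.12.0, with no role given. The annotation's records of 1555 symbols, 1 of the 9 genes and 12 of 174 list genes among them (*Il21*, *Lck*, *Pik3cd*, *Cd28*, *Klri2* and *Tnfrsf9* of those named), join several reference sequences, which may lower their counts.

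Genes were filtered by filterByExpr (minimum count 10, minimum total 15), scaled by TMM and fitted by edgeR 4.0.16 (R 4.3.3) with a robust quasi-likelihood model of group, with Benjamini-Hochberg adjustment over 17364 genes at 0.05. SE was obtained by dividing the size of the log2 fold change by the root of F. Log2 CPM used a prior count of 2. TPM used the deposited lengths. The fit was tested on simulated data.

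The 9 genes and the 18 lists were chosen with earlier results of these data known. Named were the 9 genes, up to 2 list members per direction with the smallest p, and the 3 genes most like each of the 9 above 1 CPM, leaving out predicted genes and antigen receptor segments. Further list genes (*Foxp3*, *Ncr1*, *Cd3e*, *Jak1*, *Jak3*, *Stat5a*, *Stat5b*, *Cish*, *Irf1*, *Bcl2*, *Myc*, *Il9*, *Il4*) were named for their role, after their values were seen. The values of 1 list gene that the naming rule picks are not reported here. Alternatives were RLE and upper quartile scaling, DESeq2 1.42.0, limma-voom (limma 3.58.1), 2 other filters, an adjusted p under 0.10, skeletal muscle genes left out of the scaling, a replicate block and each library left out in turn.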

Additional observations from a re-analysis of the deposited data

How the results depend on the processing

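The count of 0 genes past the threshold became 178 by DESeq2 and 1 without a filter on low counts, and was 0 under the other scalings, limma-voom, the stricter filter, an adjusted p under 0.10, the scaling without skeletal muscle genes and each left-out library; unadjusted p values under 0.05 ran from 686 genes without vehicle 3 to 1917 without niclosamide 3, against 1202 in all libraries. Called marker and structural list members numbered 10 by DESeq2 and 0 otherwise, and called pathway list members 0 throughout, though 12 had an unadjusted p under 0.05 without niclosamide 3. The cause of these differences was not tested. With 1 library left out, log2 fold changes ran from 0.25 to 0.80 for *Il15*, 0.65 to 1.27 for *Il2*, 0.13 (without vehicle 1) to 0.43 (without vehicle 3) for *Il7*, 0.63 to 0.83 for *Il15ra*, 0.20 to 0.62 for *Il2ra*, 0.79 to 1.01 for *Il2rb*, 0.41 to 0.88 for *Il2rg*, 0.42 to 0.93 for *Il7r* and 0.25 to 0.71 for *Il21r*, and under the other settings each moved by less than the SD between replicates. The labels do not say that the replicate number pairs the samples, and so few libraries cannot decide it. Same-numbered libraries had deviations correlated at -0.08, -0.09 and 0.27, and other pairs of a niclosamide and a vehicle library at -0.36 to 0.36. With the replicate block 0 genes passed the threshold in edgeR, 1141 at an unadjusted p under 0.05. Depth limits *Il2*, with 5 to 17 reads per library, and the stricter filter left it untested.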
